A study of Mus musculus with 48 samples.

Results

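The data described here are the kidney slices of male DBA/2J (DBA) and C57BL/6J (C57) mice that were kept in culture for 24 h in the nephrotoxicity arm of the study. They comprise 18 of the 48 RNA-seq libraries of the series, 9 from each strain, and were chosen by their titles: untreated control, tunicamycin or cyclosporin at 24 h. Each of the 6 groups of strain and treatment held 3 libraries, numbered 1 to 3 as biological replicates. Tunicamycin blocks protein glycosylation in the endoplasmic reticulum, and cyclosporin A is an immunosuppressant with renal toxicity. All slices came from male mice and were cultured outside the body. The labels give no age and no drug dose, and they do not tie replicate numbers to individual mice. If slices with 1 number shared a mouse, each strain is represented by 3 animals rather than 9, and p-values over 9 libraries measure in part the spread between slices of the same animal. The comparison asked how the strains differ after a day in culture, with treatment held as a covariate. Crosses of DBA/2J and C57BL/6J founded the BXD family of inbred lines.

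The proximal tubule reclaims filtered glucose, phosphate, amino acids and organic anions through carriers of the solute carrier (Slc and Slco) families, and it makes glucose and burns fat. Cultured tubule cells lose much of this program over hours to days, while transcripts of stress and repair rise. Inbred mouse strains differ in regulatory and coding sequence at many genes, among them the immune gene clusters that respond to interferon, the antiviral cytokine whose target genes (interferon-stimulated genes) include nucleic acid sensors and antiviral enzymes.

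Libraries held between 12384733 and 23584681 counts, with medians of 21570901 in C57 and 19218883 in DBA. Levels are given as CPM, a gene's count scaled to its library's total. Xist did not exceed 0.65 CPM and the Y-linked Ddx3y was at least 79.8 CPM. Defining markers of proximal tubule, podocyte, loop of Henle and distal tubule, collecting duct, intercalated cell, endothelium, mural cell and macrophage were above 0 in all 18 libraries. Along the first principal component, which held 57.5% of the variance, every C57 library lay at -36.3 or below and every DBA library at 39.5 or above. The C57 library nearest to DBA was tunicamycin replicate 2, at -36.3. It also stood apart in transcripts that the other C57 libraries almost lacked: of 54 genes with at most 3 counts in each of the other 8 C57 libraries and a mean of at least 1 CPM in DBA, 12 had more than 3 counts there. The corresponding number was at most 4 in any other C57 library. The median level of those 54 genes in tunicamycin replicate 2 was 1.38% of the DBA mean. The 3 DBA libraries numbered 2 lay nearest to C57, between 39.5 and 40.5, against 50.9 to 61.5 for the other 6.

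Strain set the level of a large share of genes. Of 17348 genes tested with edgeR's quasi-likelihood test, 8058 (46.4%) differed between DBA and C57 at a Benjamini-Hochberg adjusted p under 0.05. They split into 4209 higher in DBA (24.3%) and 3849 lower (22.2%). Most differences were small: 53.7% of the genes called lay under 0.5 on the log2 scale. Large differences leaned towards DBA, with 1211 genes higher and 597 lower by more than 1 on the log2 scale, and 245 higher and 78 lower by more than 3. In 2210 genes (12.7%) the 9 libraries of one strain lay beyond all 9 of the other, 1442 with DBA above (8.31%) and 768 with DBA below (4.43%). Without C57 tunicamycin replicate 2, 8141 genes were called. When the counts of same-numbered libraries of a strain were summed, so that 3 profiles stood against 3, 5677 genes were called, and 5421 of them were called in the same direction over 9 against 9.

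**Figure D1:**
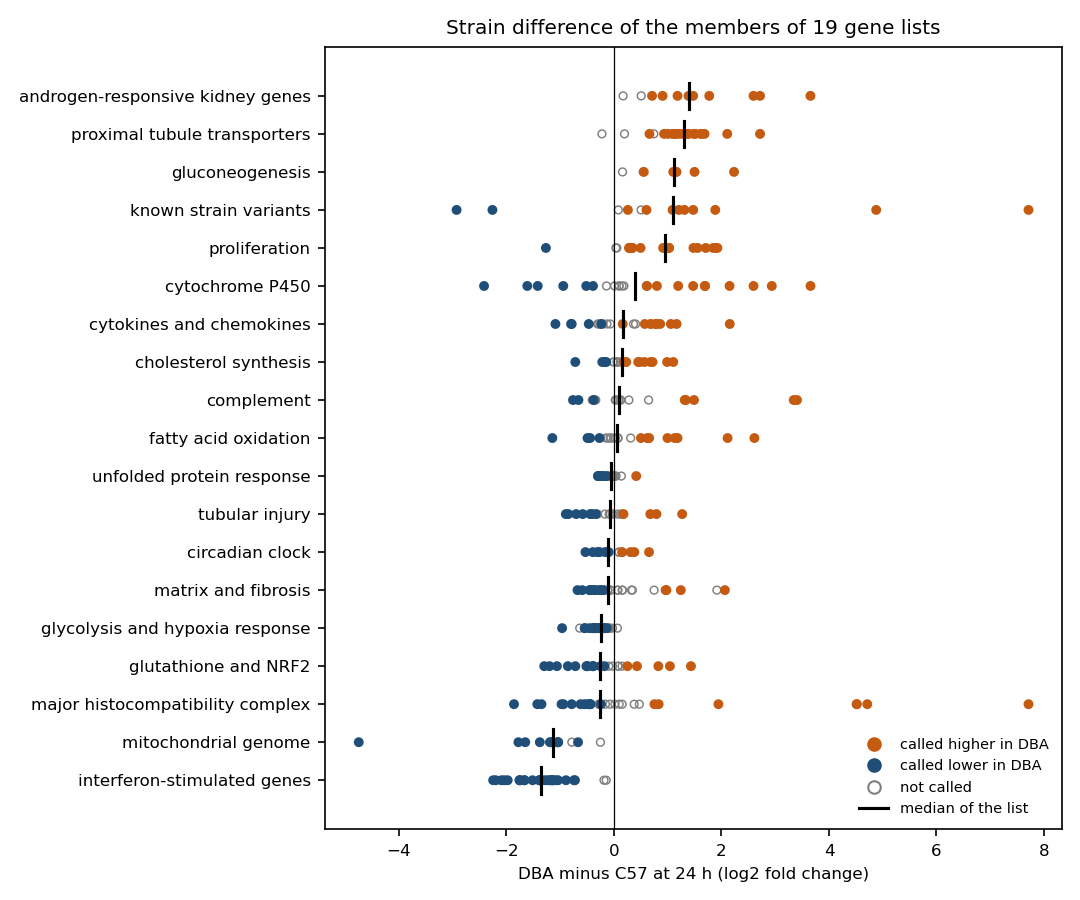
Log2 fold change between DBA and C57 slices at 24 h (x axis) for each tested member of 19 gene lists (rows, ordered by median), with called members filled, members not called open and the list median as a bar. Interferon-stimulated genes (median -1.35) lie furthest to the left, and androgen-responsive genes (median 1.39) and proximal tubule transporters (median 1.295) furthest to the right.

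Interferon-stimulated genes were lower in DBA. Of 31 members tested, 29 fell and none rose at the adjusted threshold, against 22.2% of all genes lower, and the median log2 difference was -1.35 where that of all genes was 0.01. In 20 of the 31 every DBA library lay below every C57 library. Irgm1, an interferon-induced GTPase that acts against intracellular microbes, ranged from 61.6 to 130 CPM in C57 (median 91.7) and from 27.5 to 46.1 in DBA (median 38.3). Its log2 difference was -1.37 (SE 0.088, edgeR adjusted p = 3.44e-10). Irf9, the DNA-binding subunit of the interferon-activated ISGF3 complex, ranged from 61.1 to 98.9 CPM in C57 and from 31.1 to 46.3 in DBA, a log2 difference of -1.23 (SE 0.067, adjusted p = 1.22e-11). Ddx58, which encodes the viral RNA sensor RIG-I, ranged from 71.6 to 123 CPM in C57 and from 36.3 to 63.9 in DBA, a log2 difference of -1.13 (SE 0.071, adjusted p = 1.07e-10). In none of these genes did the strains overlap. The members with the greatest fall, named after their values were seen, were Ifit3b (-2.25), Ifit3 (-2.20) and Usp18 (-2.09). Oasl1 (-0.19) and Xaf1 (-0.14) were not called. Within single treatments 27 members were called lower in control slices, 22 under tunicamycin and 27 under cyclosporin, against 10.2%, 8.71% and 10.6% of all genes, and 29 had a negative difference in all 3.

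Transport genes of the proximal tubule went the other way. Of 23 genes for solute carriers, endocytic receptors and the water channel Aqp1, 20 rose in DBA and none fell, against 24.3% of all genes higher, with a median log2 difference of 1.295. The strains overlapped in most of them and were separated completely in 4, which include the 3 given next. Slco1a1, an organic anion transporter, ranged from 1.91 to 14.2 CPM in C57 (median 6.20) and from 21.1 to 80.1 in DBA (median 45.95), a log2 difference of 2.72 (SE 0.35, adjusted p = 1.27e-05). Slc7a7, a basolateral exporter of cationic amino acids, had medians of 12.3 CPM in C57 and 37.5 in DBA, a log2 difference of 1.48 (SE 0.22, adjusted p = 4.45e-05). Slc7a8, a neutral amino acid exchanger of the same membrane, had medians of 44.7 and 72.5 CPM, a difference of 0.66 (SE 0.099, adjusted p = 2.95e-05). The highest C57 value of Slco1a1 was that of tunicamycin replicate 2, and without that library 21 of the 23 were called higher, against 4272 of all 17801 genes. With same-numbered libraries summed, 16 of the 23 were called higher, against 15.5% of all genes. Leaving out libraries or same-numbered trios in turn gave 17 to 21 called. Within single treatments 12 were called higher in control slices, 4 under tunicamycin and 11 under cyclosporin, against 12.1%, 8.67% and 11.2% of all genes, and 22 had a positive difference in all 3. Slc5a1 (-0.22), Slc6a19 (0.20) and Slc34a3 (0.74) were not called.

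Genes known to be higher in male than in female mouse kidney had the same direction. Of 11 tested, 9 rose in DBA and none fell, against 24.3% of all genes higher, with a median log2 difference of 1.39, and all 11 had a positive difference in each treatment. Cyp4a12a, an androgen-driven fatty acid hydroxylase, ranged from 1.83 to 17.2 CPM in C57 (median 4.95) and from 42.04 to 122 in DBA (median 82.1), a log2 difference of 3.66 (SE 0.36, adjusted p = 7.77e-07). Cyp2j13 had medians of 9.92 CPM in C57 and 77.7 in DBA, a difference of 2.60 (SE 0.32, adjusted p = 8.80e-06). Gusb, the lysosomal β-glucuronidase, ranged from 19.6 to 27.3 CPM in C57 and from 29.8 to 50.0 in DBA, a difference of 0.71 (SE 0.099, adjusted p = 9.71e-06). The strains did not overlap in these 3 genes. Odc1 (0.17) and Slc22a28 (0.51) were not called. Slco1a1 belongs to both lists.

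Markers of proximal tubule, podocyte, endothelium and macrophage differed as well, and in bulk RNA a smaller number of cells of a type and less RNA per cell cannot be told apart. Of 8 proximal tubule markers, which share 6 genes with the transport list, 7 rose in DBA, against 24.3% of all genes higher. With same-numbered libraries summed, 4 of the 8 were called, all higher, against 15.5% of all genes higher in that fit. Their summed level ranged from 438 to 1853 CPM in C57 (median 835) and from 1104 to 2982 in DBA (median 2106). The highest C57 sum was that of tunicamycin replicate 2. The DBA libraries numbered 2 were the lowest of their strain, at 1341, 1460.4 and 1104 CPM in control, tunicamycin and cyclosporin slices, against 1759 to 2982 in the other 6. Without those 3 libraries, 21 of the 23 transport genes were called higher, where 25.0% of all genes were. All 6 podocyte markers fell in DBA, against 22.2% of all genes lower, and their summed level did not overlap between the strains, from 1381 to 1808 CPM in C57 and from 465 to 1216 in DBA. Of 7 endothelial markers, 5 fell and none rose, beside the same 22.2%, with sums of 1171 to 1646 CPM in C57 and 675 to 1149 in DBA. Macrophage markers were higher in DBA in 5 of 7, against 24.3% of all genes, with sums of 141 to 193 CPM in C57 and 219 to 342 in DBA. For the remaining nephron and stromal lists the counts stand beside 46.4% called among all genes: of 6 markers each, 4 were called for intercalated cells and 3 for collecting duct principal cells, all lower, and of 7 each, 2 were called for the loop of Henle and distal tubule, higher, and 2 for fibroblast and mural cells, lower. The part of these cell type levels in the list differences was not tested.

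**Figure D2:**
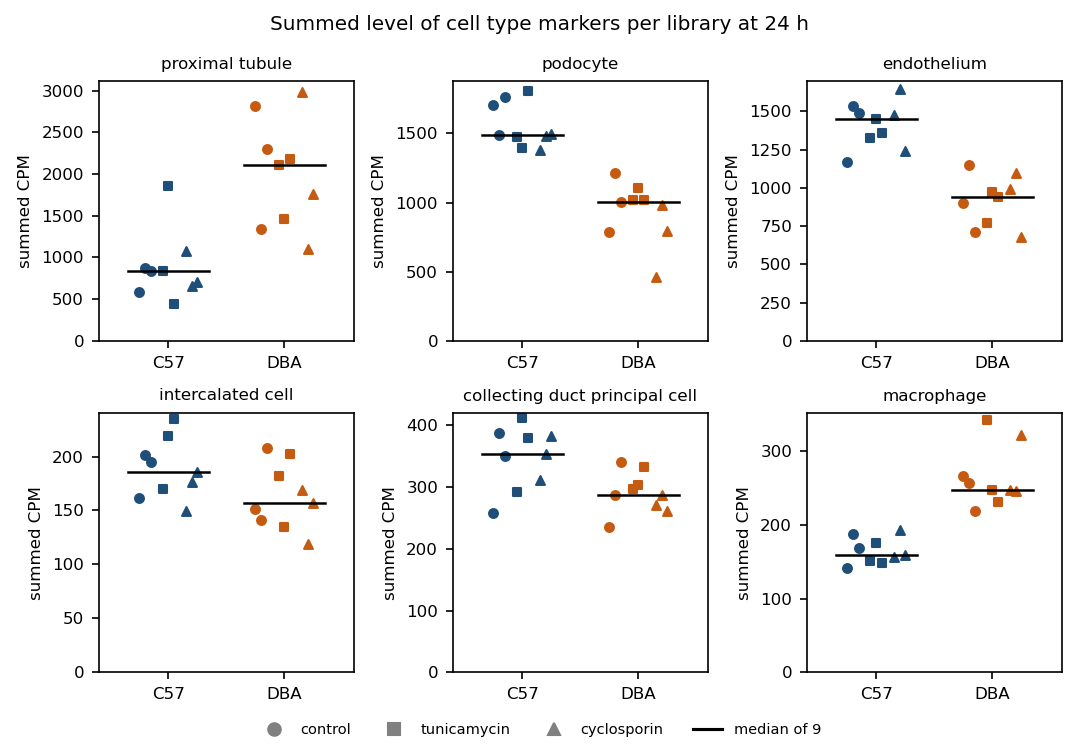
Summed CPM of fixed marker lists (y axes, from 0) in the 9 C57 and 9 DBA libraries at 24 h for 6 cell types, with a symbol per library shaped by treatment and a bar at the median of 9. Podocyte, endothelial and macrophage sums separate the strains completely, and the C57 tunicamycin library at 1853 CPM lies among the DBA libraries for proximal tubule.

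Transcripts of lymphocytes, adrenal cortex and urothelium were scarce. Markers of lymphocytes summed to at most 6.85 CPM, of adrenal cortex to at most 27.2 CPM and of urothelium to at most 8.16 CPM in any library. Adipocyte markers summed to 198 to 272 CPM in C57 and 94.0 to 192 in DBA. Within those lists and that of erythroid cells the following were singled out after their values were seen. Star, the cholesterol carrier of steroid-producing cells, fell from a median of 22.9 CPM in C57 to 3.98 in DBA (log2 difference -2.53), while the other 3 adrenal markers, Cyp11a1, Cyp11b1 and Hsd3b1, were too low to be tested. Cd3e, a T cell receptor subunit, rose from a median of 0.13 CPM in C57 to 2.23 in DBA (log2 difference 3.32). Cd8a, a coreceptor of cytotoxic T cells, fell from a median of 0.88 to 0.24 CPM, with overlap (log2 difference -1.69, SE 0.35, adjusted p = 4.79e-04). Cd3d was too low to be tested. Fabp4, a fatty acid binding protein of fat cells and endothelium, fell from 239 to 135 CPM (log2 difference -0.88), with Adipoq and Plin1 near 0 in both strains. The hemoglobin gene Hba-a2 fell from 4.91 to 0.16 CPM, while the summed erythroid level ranged from 23.4 to 75.3 CPM in C57 and from 11.97 to 64.8 in DBA. Of 5 erythroid markers 3 were called lower and 0 higher, against 22.2% of all genes lower.

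Glycolysis genes were mostly lower in DBA and gluconeogenic genes, given next, mostly higher. Of 26 genes of glycolysis and the response to hypoxia, 17 fell in DBA and none rose, against 22.2% of all genes lower, with a median log2 difference of -0.24. Gpi1, glucose-6-phosphate isomerase, ranged from 2155 to 2679 CPM in C57 and from 927 to 1590.4 in DBA, a difference of -0.97 (SE 0.074, adjusted p = 2.42e-09). Gapdh, a glycolytic enzyme often used as a reference transcript, had medians of 3235 CPM in C57 and 2335 in DBA, a difference of -0.54 (SE 0.055, adjusted p = 1.12e-07). Slc2a1, the glucose transporter GLUT1, differed by -0.37 (SE 0.096, adjusted p = 0.00394), and Vegfa, the angiogenic growth factor, by -0.33 (SE 0.097, adjusted p = 0.00966). With same-numbered libraries summed, 8 of the 26 were called, all lower, against 14.2% of all genes lower in that fit, and Vegfa was not called (adjusted p = 0.0774).

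Gluconeogenic genes were higher in DBA. Of 8 tested, 6 rose and none fell, against 24.3% of all genes higher, with a median log2 difference of 1.13. G6pc, glucose-6-phosphatase, had medians of 4.66 CPM in C57 and 27.98 in DBA (difference 2.23, SE 0.34, adjusted p = 6.95e-05), Fbp1, fructose-1,6-bisphosphatase, 66.1 and 213 CPM (1.498, SE 0.23, adjusted p = 7.06e-05), and Gpt, alanine aminotransferase, 3.56 and 8.39 CPM (1.15, SE 0.17, adjusted p = 1.81e-05). The strains overlapped in all 3, and for G6pc the overlap came from C57 tunicamycin replicate 2 at 19.1 CPM, the other 8 C57 libraries lying at or below 5.33. Fat oxidation genes lay near the background: of 22, 8 rose and 4 fell, 54.5% called against 46.4% of all genes, and the median difference was 0.05. Those that rose most were Acsm1 and Acsm2, acyl-CoA synthetases for medium-chain acids, with differences of 2.61 (SE 0.27) and 2.11 (SE 0.29), and Mlycd, malonyl-CoA decarboxylase, rose by 1.13 (SE 0.072, adjusted p = 1.19e-10).

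Transcripts of mitochondrial DNA took a smaller share of the counts in DBA. The 37 mitochondrial genes held 5.43% to 7.87% of the counts in C57 (mean 6.40% ± 0.83, SD, n = 9) and 3.11% to 4.12% in DBA (mean 3.48% ± 0.30, SD, n = 9), with no overlap. The difference of -2.92 percentage points had p = 0.00025 in an exact two-sided permutation of strain within treatment, the smallest that its 8000 arrangements allow. Over means of same-numbered libraries, 3 against 3, p was 0.1, the smallest that this exact test can give. Of 13 protein-coding mitochondrial genes 11 fell and none rose, against 22.2% of all genes lower. Mt-Cytb, a subunit of respiratory complex III, had medians of 18196 CPM in C57 and 8546 in DBA, a log2 difference of -1.14 (SE 0.097, adjusted p = 1.07e-08), and mt-Nd5 of complex I differed by -1.04 (SE 0.068, adjusted p = 1.85e-10). Mt-Nd3 was counted at 0.74 to 2.33 CPM in C57 and at most 0.14 in DBA.

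Genes of glutathione synthesis and other targets of NRF2, the transcription factor of the oxidative stress response, were mostly lower in DBA. Of 24 tested, 13 fell and 5 rose, against 22.2% lower and 24.3% higher among all genes, with a median log2 difference of -0.25. Gclc and Gclm, the catalytic and regulatory subunits of the rate-limiting enzyme of glutathione synthesis, differed by -1.06 (SE 0.083, adjusted p = 4.97e-09) and -0.86 (SE 0.058, adjusted p = 3.19e-10). Gclc ranged from 943 to 1329.5 CPM in C57 and from 465.8 to 691 in DBA. Gsta3, a glutathione transferase, ranged from 53.7 to 72.1 CPM in C57 and from 22.8 to 30.9 in DBA, a difference of -1.30 (SE 0.068, adjusted p = 5.43e-12). The DBA libraries lay below all C57 libraries in the 3 genes. Those that rose included Gstm5 (1.43) and Mgst3 (1.04), named after their values were seen.

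Cytochrome P450 genes went both ways. Of 24 tested, 10 rose and 6 fell, against 24.3% higher and 22.2% lower among all genes, with a median of 0.39. Cyp1a1, the classic target of the aryl hydrocarbon receptor, ranged from 10.6 to 23.2 CPM in C57 (median 17.4) and from 1.58 to 4.63 in DBA (median 3.45), a log2 difference of -2.42 (SE 0.19, adjusted p = 7.83e-09). Ahr, the receptor itself, whose DBA/2J allele encodes a form of low ligand affinity, had medians of 15.8 CPM in C57 and 16.996 in DBA and was not called (0.08, SE 0.081, adjusted p = 0.439). The family members that rose were led by Cyp4a12a and its near relative Cyp4a12b, which had medians of 0.65 and 5.18 CPM and a difference of 2.94 (SE 0.31, adjusted p = 3.90e-07). Reads may be shared between those 2 genes.

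**Figure D3:**
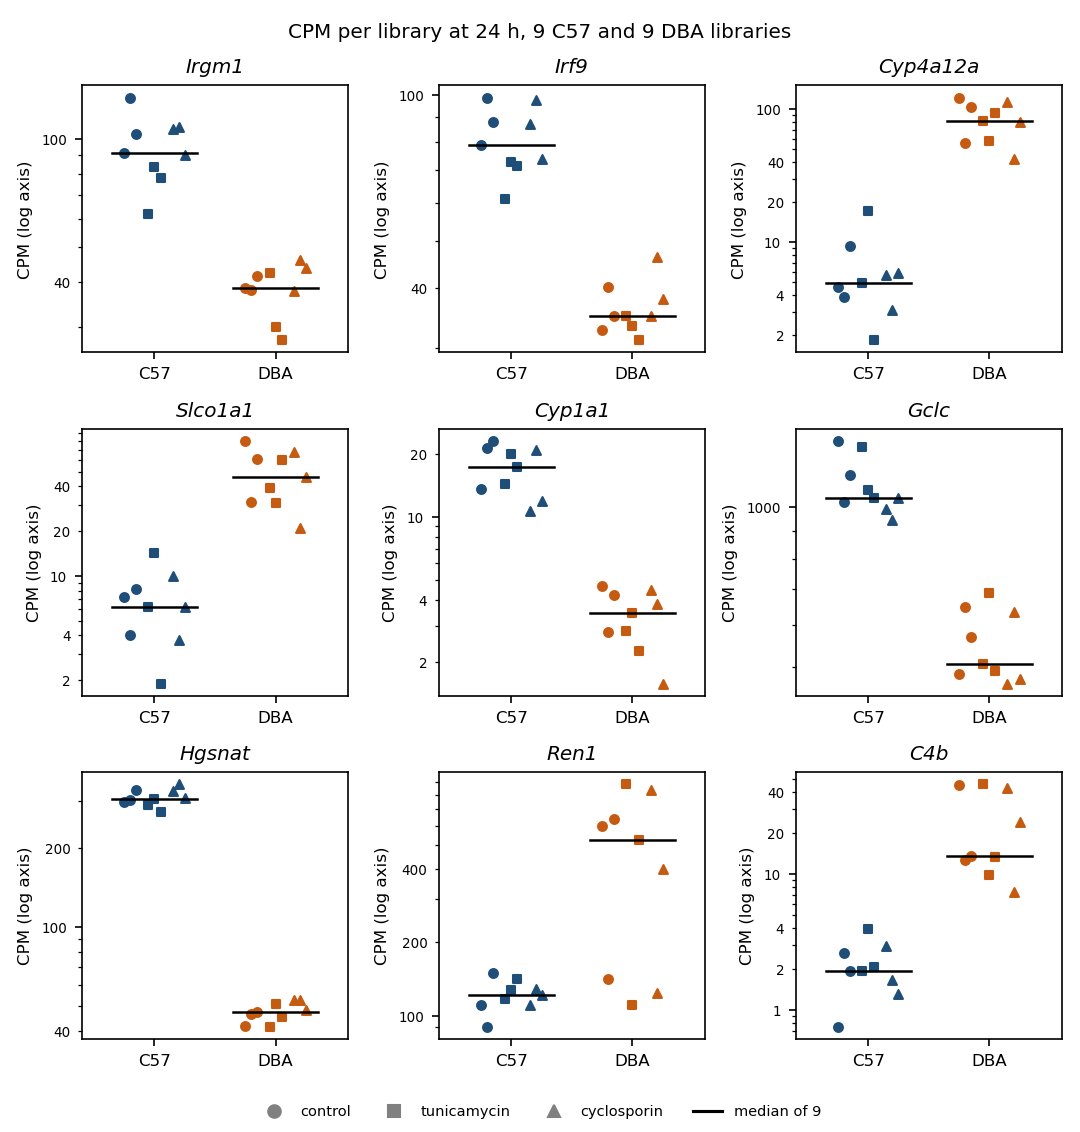
CPM (y axes, logarithmic) in each of the 9 C57 and 9 DBA libraries at 24 h for 9 genes, with symbols shaped by treatment and a bar at the median of 9. Irgm1, Irf9, Cyp1a1, Gclc and Hgsnat are lower in every DBA library, Cyp4a12a, Slco1a1 and C4b higher in every DBA library, and the 3 DBA libraries numbered 2 have Ren1 within the C57 range.

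Antigen presentation genes of the major histocompatibility complex (MHC) were mixed. Of 30 tested, 13 fell and 7 rose in DBA, against 22.2% lower and 24.3% higher among all genes, with a median of -0.26. The strains carry different MHC haplotypes, and reads of DBA alleles were counted against the C57BL/6J reference, so single class I genes cannot be told apart from their relatives with confidence. H2-K1, a classical class I gene, ranged from 597 to 784 CPM in C57 and from 323 to 480 in DBA (log2 difference -0.98, SE 0.067, adjusted p = 3.99e-10). H2-Q10 and H2-Q1, non-classical class I genes, rose from medians of 1.72 and 0.95 CPM in C57 to 46.5 and 21.3 in DBA, differences of 4.71 (SE 0.099, adjusted p = 1.66e-18) and 4.51 (SE 0.20, adjusted p = 1.79e-12).

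Of 18 complement genes, 5 rose and 3 fell, and 44.4% were called against 46.4% of all genes. C4b and C4a, copies of complement component 4 in the MHC, rose by 3.40 (SE 0.46, adjusted p = 2.03e-05) and 3.34 (SE 0.27, adjusted p = 1.63e-08). Within DBA, C4b was highest in the 3 libraries numbered 1, which held 44.96, 45.4 and 42.8 CPM, and the other 6 between 7.37 and 24.0, while C57 libraries held 0.75 to 3.90. Cd59a, an inhibitor of the terminal complement complex, fell by 0.76 on the log2 scale (SE 0.11, adjusted p = 1.02e-05). Of 23 cytokine genes, 9 rose and 5 fell, against 24.3% higher and 22.2% lower among all genes, so the share that fell was near that of all genes. Tnf rose from a median of 2.60 to 7.26 CPM (1.17, SE 0.17, adjusted p = 1.25e-05), the neutrophil attractant Cxcl2 from 44.8 to 98.7 CPM (0.86, SE 0.13, adjusted p = 4.32e-05), and Il34, a ligand of the macrophage receptor Csf1r, from 21.8 to 36.04 CPM (0.68, SE 0.094, adjusted p = 8.13e-06). Macrophage markers, given above, were also higher in DBA, and their part in these levels was not tested. The interferon-induced chemokine Cxcl10, named after its value was seen, fell by 1.09.

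Injury transcripts had no common direction. Of 20 genes, 4 rose and 7 fell in DBA, so that 11 of 20 were called beside 46.4% of all genes, with a median of -0.08. Havcr1, which encodes the tubular injury marker KIM-1, ranged from 31.5 to 275 CPM in C57 (median 209) and from 179 to 888 in DBA (median 398), a log2 difference of 1.27 (SE 0.26, adjusted p = 8.71e-04), with overlap between the strains. Lcn2, the injury marker NGAL, had medians of 85.6 and 81.6 CPM and was not called (-0.17, SE 0.19, adjusted p = 0.503). Clu, a secreted chaperone that rises in damaged tubules, ranged from 1223 to 1489.8 CPM in C57 and from 638 to 992 in DBA (-0.85, SE 0.079, adjusted p = 4.45e-08). Krt18, a keratin of simple epithelium, and Sprr2f fell by 0.44 (SE 0.065) and 0.90 (SE 0.13) on the log2 scale.

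Unfolded protein response genes differed little. Of 20, 7 fell and 1 rose, a share of 8 in 20 that lies below the 46.4% called among all genes. Leaving out libraries or same-numbered trios in turn gave 4 to 10 called, with 5 without C57 control replicate 1 or without C57 cyclosporin replicate 2. The largest difference among those called was 0.41 (Chac1, a glutathione-degrading enzyme, SE 0.062, adjusted p = 1.93e-05). The transcription factor Atf4 differed by -0.20 (SE 0.035) and asparagine synthetase, Asns, by -0.30 (SE 0.057). Hspa5, the chaperone BiP, ranged from 4365 to 8560.4 CPM in C57 and from 3552.5 to 7560.1 in DBA, with overlap (-0.28, SE 0.083, adjusted p = 0.00968). It was not called with same-numbered libraries summed (adjusted p = 0.0888). Ddit3, the stress factor CHOP, was not called (0.14, SE 0.076, adjusted p = 0.152, under its main ID). With same-numbered libraries summed, 4 of the 20 were called, against 29.7% of all genes.

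Cell cycle genes were higher in DBA in 15 of 18, with 1 lower, against 24.3% of all genes higher, and a median log2 difference of 0.94. Cdk1, the kinase that drives mitosis, ranged from 0.47 to 1.16 CPM in C57 and from 1.37 to 5.64 in DBA (1.85, SE 0.21, adjusted p = 5.43e-07). Mcm5, a subunit of the replicative helicase, had medians of 9.88 and 23.7 CPM (1.02, SE 0.11, adjusted p = 1.58e-07). Mcm6, a subunit of the same helicase, was the exception and fell from 41.2 to 16.04 CPM, with no overlap (-1.27, SE 0.14, adjusted p = 9.32e-07). Pcna (0.05) and Rrm2 (0.03) were not called.

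Matrix genes fell in 11 of 30 and rose in 4, so that 15 of 30 were called, near the 46.4% of all genes. DBA tunicamycin replicate 1 and DBA cyclosporin replicate 3 stood apart from the other DBA libraries in this list. Col3a1, a fibrillar collagen, stood at 232 and 138 CPM in them and between 9.85 and 24.7 in the other 7 DBA libraries, and the matrix protein Fn1 at 579 and 447 CPM and between 93.3 and 160.4. Their summed fibroblast and mural cell markers, which share Col1a1, Col3a1 and Acta2 with the matrix list, were 595 and 393 CPM, against 143 to 299 in the other 7 and 237 to 322 in C57, and the part of these levels in the result was not tested. Without both libraries, 17 matrix genes fell and 4 rose, where 43.1% of all genes were called. Col4a1 and Col4a2, the basement membrane collagen chains, differed by -0.35 (SE 0.054, adjusted p = 2.59e-05) and -0.41 (SE 0.067, adjusted p = 4.96e-05), and Mmp13, a collagenase, by 0.96 (SE 0.10, adjusted p = 2.04e-07). Cholesterol synthesis genes rose in 9 of 20 and fell in 4, against 24.3% higher and 22.2% lower among all genes, with Nsdhl 1.10 higher (SE 0.11), Stard4 0.68 higher (SE 0.073) and Sc5d 0.72 lower on the log2 scale (value -0.72, SE 0.043). Clock genes rose in 4 of 18 and fell in 8, so that 12 of 18 were called against 46.4% of all genes. The number called was 7 without C57 cyclosporin replicate 3, and between 5 and 11 over all libraries or same-numbered trios left out in turn. Npas2 differed by 0.65 (SE 0.12), Bhlhe40 by -0.53 (SE 0.11) and Cry1 by -0.29 (SE 0.067). Cry1 was not called with all 48 libraries (adjusted p = 0.0879). With same-numbered libraries summed, 8 of 20 cholesterol and 4 of 18 clock genes were called, where 29.7% of all genes were.

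Of 17 genes with a known variant between the strains, 13 were tested, of which 9 rose and 2 fell in DBA, against 24.3% higher and 22.2% lower among all genes. This list was written from knowledge of these strains. Alad and Glo1, which lie in segments duplicated in DBA/2J, ranged from 27.9 to 35.2 and from 39.3 to 48.6 CPM in C57, and from 76.2 to 103 and from 88.3 to 113 CPM in DBA, without overlap. Their log2 differences were 1.47 (SE 0.059, adjusted p = 6.77e-14) and 1.09 (SE 0.049, adjusted p = 5.86e-13). Nnt, the mitochondrial transhydrogenase in which C57BL/6J carries a deletion of exons, differed by 1.21 (SE 0.13, adjusted p = 1.36e-06). Gpnmb, a glycoprotein with a premature stop in DBA/2J, fell from a median of 4.75 to 0.63 CPM, and Apobec3, a retrovirus restriction factor, from 16.1 to 3.72 CPM. Hdc, histidine decarboxylase, rose from 0.95 to 45.7 CPM (4.88, SE 0.36), with the highest C57 value, 4.76, in tunicamycin replicate 2. H2-Ea-ps, the class II α chain that C57 mice do not transcribe, was at 0 in 8 C57 libraries, at 0.77 CPM in tunicamycin replicate 2 and from 12.8 to 39.2 CPM in DBA. Myo5a (0.26), Gcnt1 (0.60) and Gpr84 (1.31) rose, Fscn2 (0.50) was not called, and Tyrp1, Klrd1, Hc and Gabra2 were too low to be tested.

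Renin set the DBA libraries numbered 2 apart from the other DBA libraries. Ren1 encodes the protease that starts the angiotensin cascade, and DBA/2J mice carry an additional, closely related gene, Ren2, whose reads a C57BL/6J reference cannot place apart. C57 libraries held 90.3 to 151 CPM. The DBA libraries numbered 2 held 142, 111 and 124 CPM, within the C57 range, and the other 6 between 398 and 883. The log2 difference was 1.88 (SE 0.40, adjusted p = 0.00121) and was not called with same-numbered libraries summed (adjusted p = 0.0675). The DBA slices numbered 2 in Ren1, and those numbered 1 in C4b, thus stood apart from the other DBA slices under all 3 treatments.

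The largest increases in DBA, among genes that separated the strains, included transcripts almost absent from C57. Stab2, a scavenger receptor for hyaluronan on sinusoidal endothelium, ranged from 0.073 to 1.37 CPM in C57 and from 36.6 to 78.7 in DBA (log2 difference 6.83, SE 0.31, adjusted p = 4.23e-11). Actc1, cardiac actin, ranged from 2.51 to 28.05 CPM in DBA with at most 3 counts in any C57 library. Greb1, an estrogen-regulated gene, ranged from 10.6 to 17.5 CPM in DBA and did not exceed 0.26 in C57. Alox15, a lipoxygenase, Tm4sf5, a tetraspanin-like membrane protein, Col6a6, a collagen VI chain, Pianp and Prune2 rose by 6.28, 5.70, 5.35, 5.98 and 4.92 on the log2 scale. Serpina1b, an α1-antitrypsin gene from a cluster of close copies, rose by 5.42. The highest C57 values of Stab2, Alox15 and Col6a6 were those of tunicamycin replicate 2 (1.37, 0.51 and 1.72 CPM). Without that library the differences of Stab2, Alox15 and Col6a6 were 7.22, 6.95 and 7.35.

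Among the largest decreases was Hgsnat, a lysosomal acetyltransferase of heparan sulfate breakdown, which ranged from 273 to 347 CPM in C57 and from 41.6 to 52.7 in DBA (log2 difference -2.78, SE 0.046, adjusted p = 6.01e-20). Atp4a, the gastric-type proton pump subunit also found in collecting duct, ranged from 37.8 to 59.7 CPM in C57 and from 2.38 to 5.07 in DBA (-3.85, SE 0.14). Pttg1, the separase inhibitor securin, ranged from 21.6 to 28.8 CPM in C57 and from 2.44 to 4.16 in DBA (-3.17, SE 0.086). Cpn1, a carboxypeptidase subunit, B3gnt3, a glycosyltransferase, and Tmem45b differed by -3.44, -3.09 and -3.06. Trim12a, an antiviral TRIM protein, was at 0 in 8 DBA libraries and at 1 count in the other, and ranged from 12.3 to 24.2 CPM in C57, at least 125-fold higher against a floor of 3 counts per library.

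Several of the largest decreases sat together in clusters of interferon-inducible genes, which were looked at after their values were seen. On GRCm38 coordinates of GENCODE M21, the Ifi200 cluster, whose members sense DNA, spans chr1:173468485-174031810. Of 12 members tested there, 11 fell and 1 rose, against 22.2% lower and 24.3% higher among all genes, from which nothing is read because the clusters were picked by their values. Ifi206, Mndal and Ifi208 differed by -7.79, -5.07 and -4.11. Ifi202b, in the same cluster, rose from a median of 0.26 CPM to 26.7 (6.92, SE 0.31, adjusted p = 1.41e-11). In the Trim12 and Trim30 cluster at chr7:104299894-104465193, 4 of 5 tested members fell, with Trim30a at -1.56. Trim30d, in the same family on chromosome 7, lay outside the stretch counted and differed by -4.00. In the Schlafen cluster at chr11:82951349-83215154, 7 of 8 fell, with Slfn4 at -3.06 and Slfn2 at -1.98. Close copies in these clusters can exchange reads, and strain differences in copy number cannot be told apart from differences in expression.

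At some genes a fall in DBA stood beside a rise at a near-identical copy elsewhere in the genome. The 4 pairs that follow were chosen after their values were seen. Hmga1, a chromatin protein of growing cells, ranged from 443 to 540 CPM in C57 and from 195 to 287 in DBA (log2 difference -1.10, SE 0.065, adjusted p = 4.38e-11). Hmga1b, an intronless copy at chr11:120762794-120764419 (GRCm38), ranged from 4.28 to 6.36 CPM in C57 and from 205 to 298 in DBA (5.41, SE 0.097, adjusted p = 9.83e-19). The sum of both was 491 ± 29.1 CPM in C57 and 479 ± 63.1 in DBA (SD, n = 9 each), and its ranges overlapped. In GENCODE M21 the aligned stretch of the 2 transcripts, 1602 bases, holds 3 mismatches, and the coding sequence of Hmga1b equals that of the long form of Hmga1 at chr17:27556497-27563674 in all 324 bases. Its start at chr11:120762889-120763068, plus strand, is shown 5′ to 3′ because a read within it fits either locus, with capitals for the 33 bases that the short form of Hmga1 lacks.
Hmga1b coding sequence, first 180 bases: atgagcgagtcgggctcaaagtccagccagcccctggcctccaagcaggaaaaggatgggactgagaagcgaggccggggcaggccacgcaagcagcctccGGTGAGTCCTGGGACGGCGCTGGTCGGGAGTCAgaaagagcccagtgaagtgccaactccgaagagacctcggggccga

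Ribosomal protein and enolase genes had the same pattern. Rpsa ranged from 583 to 678 CPM in C57 and from 405 to 474 in DBA, while its pseudogene Rpsa-ps10, identical in 879 of 885 bases, ranged from 1.65 to 2.63 and from 168 to 206. Their sum was 634 ± 32.7 CPM in C57 and 620 ± 36.96 in DBA (SD, n = 9 each), again with overlap. Rplp0, another frequent reference transcript, fell from a median of 985 to 479 CPM, and the pseudogene Gm8730, identical to it in 942 of 954 bases, rose from 1.84 to 189 CPM. The sum of this pair did not overlap, 889 to 1112 CPM in C57 and 601 to 706 in DBA, a ratio of 0.67. Eno1, a glycolytic enzyme and a member of the list above, fell from a median of 1734 to 1205 CPM (-0.54, SE 0.060), and Eno1b, identical in 1643 of 1652 aligned bases, rose from 3.14 to 196 CPM (6.03, SE 0.11). Summed, the pair had a ratio of 0.84 between the strains' means, against 0.72 for Eno1 alone. The share of such differences that lies in the placement of reads cannot be told apart from expression of the copies.

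**Figure D4:**
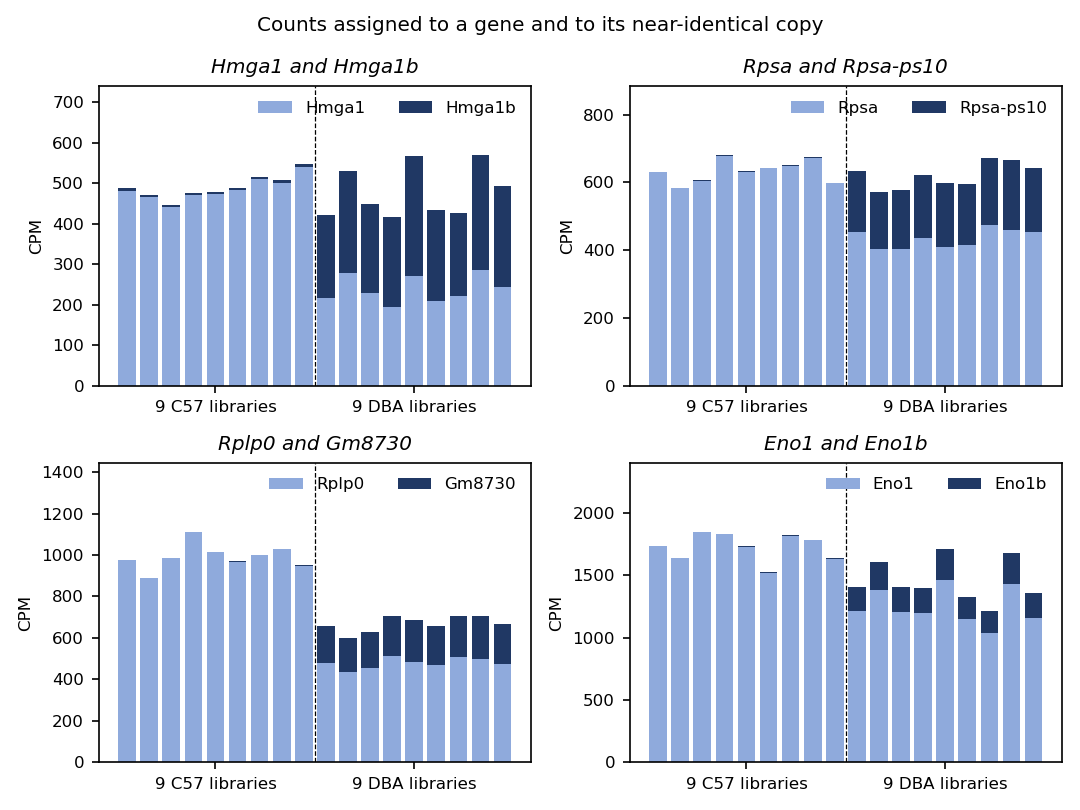
CPM (y axes, from 0) counted at a gene and stacked on it at its near-identical copy in each of the 9 C57 and 9 DBA libraries at 24 h, for 4 pairs. The copies are almost unseen in C57 and hold 166 to 298 CPM in DBA, and the stacked heights of Hmga1 and of Rpsa with their copies overlap between the strains.

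Pseudogenes had large differences more often than protein-coding genes, which was not tested. Of 798 pseudogenes, 29.3% were called with a difference over 1 on the log2 scale, against 8.86% of 14732 protein-coding genes and 10.4% of all genes. Pseudogenes were called at any size in 39.7%, below the 46.4% of all genes, with 242 higher and 75 lower in DBA, where the calls of all genes were 4209 higher and 3849 lower. By a stricter description, 42 genes had a mean of at least 1 CPM in DBA and at most 3 counts in each C57 library, of which 26 were pseudogenes and 11 protein-coding. In the opposite direction 16 genes met these limits, of which 2 were pseudogenes and 11 protein-coding. With a ceiling of 10 counts the numbers were 129 and 39, and with 0 counts 3 and 1. Azgp1, a secreted zinc-binding glycoprotein singled out from them after its values were seen, had no count in any DBA library and 5.50 to 11.5 CPM in C57, at least 52.4-fold higher against 3 counts per library.

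Called genes lay on all chromosomes. The share called per chromosome with over 400 genes tested ran from 37.5% on the X to 50.9% on chromosome 17, which carries the MHC. Over 242 windows of 10 Mb with at least 20 tested genes the median share was 45.8%, with a range of 23.8% to 82.4%. The mitochondrial genome, far shorter than 10 Mb, was counted among them, with 16 of 20 genes called. The highest share, 28 of 34 genes, was on chromosome 12 between 20 and 30 Mb.

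Treatment did not detectably change the strain difference. No gene passed the adjusted threshold in edgeR's test of the interaction of strain with treatment, 302 had an unadjusted p under 0.05, and DESeq2's likelihood ratio test also called 0, with 416 at an unadjusted p under 0.05. Both numbers lie below a share of 0.05 of the genes tested (17348 and 33783), the share given where no gene differs, so these tests were conservative. No interaction fit paired same-numbered slices within a strain, so the result does not show that treatment leaves the strain difference unchanged. Within control slices 3867 genes differed between the strains (22.3%), within tunicamycin 3015 (17.4%) and within cyclosporin 3777 (21.8%). Of the 8058 genes called over all treatments, 8006 had the same sign in each. Irgm1 differed by -1.53 in control, -1.22 under tunicamycin and -1.35 under cyclosporin, Slco1a1 by 3.10, 2.43 and 2.64, and Cyp1a1 by -2.39, -2.65 and -2.22. With 3 libraries per group these tests had less power than the comparison of 9 with 9. The count within control fell to 2502 without DBA control replicate 1 and to 2543 without replicate 3, and the count within cyclosporin fell to 2445 without DBA cyclosporin replicate 1.

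The 18 libraries of the same strains and treatments at 6 h showed how far the differences depended on culture time. In a fit of 36 libraries, 9659 of 18174 genes differed between the strains at 6 h (53.1%) and 7755 at 24 h. The genes called in the same direction at both times numbered 5493, which is 70.8% of the calls at 24 h and 56.9% of those at 6 h, and 190 genes were called in opposite directions. The change of the strain difference from 6 h to 24 h was called for 2207 genes (12.1%), 1227 towards DBA and 980 towards C57. That split depended on scaling and filter: RLE factors gave 1071 and 1157, and no filter on low counts gave 646 and 1054. Of those 18174 genes, 4914 (27%) were called higher and 4745 (26.1%) lower in DBA at 6 h. The interferon-stimulated genes were lower at 6 h as well, 29 of 31 with 1 higher, and 14 of 23 proximal tubule transport genes and 10 of 11 androgen-responsive genes were higher. All 13 mitochondrial genes were lower in DBA at 6 h.

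Genes named for the smallest p of this change had moved in opposite ways. Gsta2, a glutathione transferase, had medians of 77.0 CPM in C57 and 5.03 in DBA at 6 h (log2 difference -4.03) and of 108 and 116 at 24 h (0.08, not called), a change of 4.14 (SE 0.22, adjusted p = 6.22e-13). Hgsnat had medians of 63.3 and 38.01 CPM at 6 h and of 305 and 47.4 at 24 h, so the gap widened by -1.80 (SE 0.093, adjusted p = 1.89e-14). Car12, a carbonic anhydrase, had medians of 289 and 391 CPM at 6 h and of 84.7 and 266 at 24 h, a change of 1.17 (SE 0.093, adjusted p = 5.41e-10). Abr, a regulator of small GTPases, was lower in DBA at 6 h (-0.45) and higher at 24 h (0.35). H2-Q2, a class I gene, was 2.89 higher at 6 h and 0.83 at 24 h.

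Other named genes also changed with time. Havcr1 ranged from 0.57 to 3.37 CPM in C57 and from 9.02 to 35.7 in DBA at 6 h, without overlap (3.84), and at 24 h the strains overlapped, a change of -2.55 (SE 0.45, adjusted p = 3.71e-04). Cyp1a1 had medians of 1.01 and 1.09 CPM at 6 h, where it was not called (0.21), a change of -2.59 (SE 0.30, adjusted p = 5.36e-07). Gcnt1, a glycosyltransferase, and Chac1 were lower in DBA at 6 h (-0.83 and -0.82) and higher at 24 h (0.60 and 0.41).

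**Figure D5:**
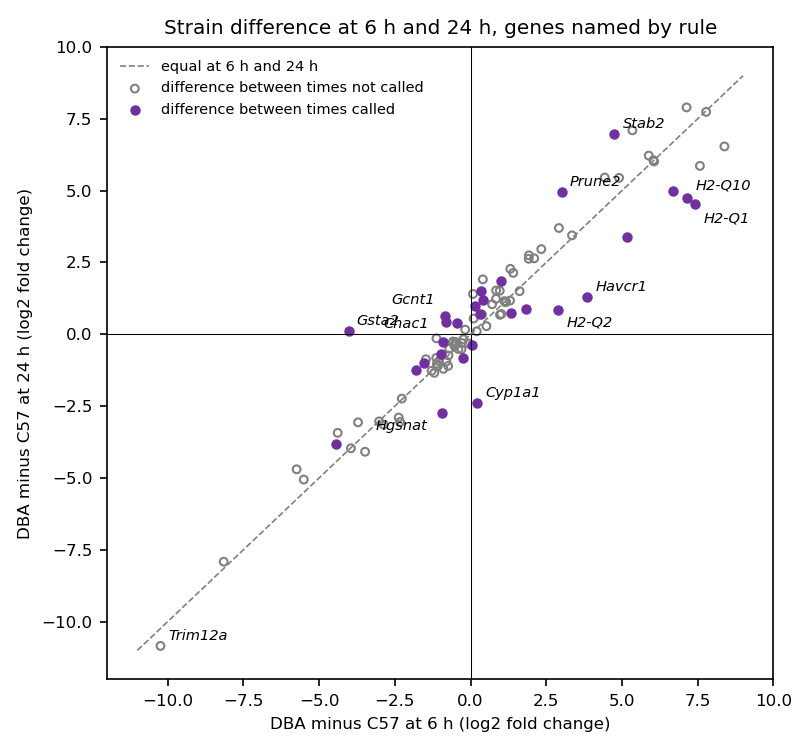
Log2 difference between DBA and C57 at 6 h (x axis) and at 24 h (y axis), from the fit of 36 libraries, for the genes named by rule except H2-Ea-ps, with filled points where the change between the times was called and a dashed line of equality. Most points lie near the line, Gsta2 lies at -4.03 at 6 h and near 0 at 24 h, and Havcr1 lies below the line.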

How the data were processed

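The authors deposited a single table of raw gene counts, 55487 Ensembl IDs by 48 libraries, without normalization. Per the labels' protocols, total RNA came from Qiagen midi columns, and Illumina's ligation-based stranded mRNA kit made the libraries. The submitters' processing notes name bcl2fastq 2.20.0, FastQC 0.11.8, STAR 2.7.9a, featureCounts 1.5.1 and GRCm38, the C57BL/6J genome. Settings, strand option and annotation release are not given in the sources used here, so antisense, overlapping and near-identical genes carry an uncertainty, and DBA reads with mismatches to the reference may be lost or moved. Symbols matched 55141 IDs and coordinates 55227, from GENCODE M21.

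CPM scales a gene's count to its library's total. The 18 libraries were fitted with edgeR 4.0.16 (R 4.3.3, limma 3.58.1): TMM factors, the default filter on low counts with 6 groups, robust quasi-likelihood F tests of strain with treatment as covariate, and Benjamini-Hochberg adjustment over 17348 genes. Further fits gave the interaction with treatment, the difference within each treatment, and, over 36 libraries, the change from 6 h to 24 h. A standard error is the absolute log2 difference over the square root of F. The method was tested on simulated data. Total counts limit the precision of genes with few counts, and counts at 0 allow up to 3.

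Members and lists were chosen with earlier results of these data known, so no list is tested as such and its counts stand beside those of all genes. Named genes were the 12 largest increases and decreases with a mean of at least 5 CPM and no overlap between the strains, without predicted names, the 3 smallest p per list, the known variants, the 5 smallest p for the change with time, and Havcr1, Lcn2, Hspa5, Ddit3, Slc2a1 and Vegfa. Other genes are said to be named after their values were seen or are members of fixed lists. H2-L was not matched. Alternatives were RLE factors, no filter, DESeq2 1.42.0, a replicate block, all 48 libraries, same-numbered libraries summed or treated as correlated (limma voom), 1 mean per group, no mitochondrial genes, and leaving out each library or same-numbered trio. Leaving out 2 DBA libraries together was added after seeing the data.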

Additional observations from a re-analysis of the deposited data

Results flagged for a closer look

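Of 80 checks for a library apart from the other 8 of its strain, on totals, genes detected, mitochondrial share and the largest or known strain differences, 8 were positive. For independent normal values chance alone gives about 1 in 20. Levels near 0, and genes checked in the same libraries, do not meet that condition, so the 8 cannot be set against it. C57 tunicamycin replicate 2 was the highest C57 library for 5 DBA-high genes: Stab2 at 1.37 CPM (others 0.073 to 0.67), Alox15 at 0.51 (others at most 0.23), Col6a6 at 1.72 (others at most 0.14), H2-Ea-ps at 0.77 (others 0) and Hdc at 4.76 (others 0.59 to 1.39). C57 tunicamycin replicate 3 was highest for Serpina1b at 0.88 CPM. DBA control replicate 2 held 0.051 CPM of Trim12a, a single count, where the other 8 held none. DBA cyclosporin replicate 1 had a mitochondrial share of 4.12%, against 3.11% to 3.60% in the other DBA libraries.

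For 28 named genes the difference between DBA and C57 at 24 h differed from that at 6 h in edgeR's interaction test. The change was negative, on the log2 scale, for H2-Q1 (-2.89), Cyp1a1 (-2.59), Havcr1 (-2.55), H2-Q10 (-2.41), H2-Q2 (-2.03), Hgsnat (-1.80), C4a (-1.76), Hdc (-1.68), Cxcl2 (-0.96), Gusb (-0.60), Gclm (-0.58) and Col4a2 (-0.44). It was positive for Sc5d (0.30), Stard4 (0.40), mt-Nd5 (0.51), Mcm6 (0.56), Atp4a (0.63), Cry1 (0.64), Tnf (0.78), Abr (0.83), Mmp13 (0.85), Cdk1 (0.87), Car12 (1.17), Chac1 (1.26), Gcnt1 (1.46), Prune2 (1.93), Stab2 (2.23) and Gsta2 (4.14).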

How the results depend on the processing

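The 8058 genes called between the strains became 8048 with RLE factors, 8052 without a filter, 8510 with DESeq2, 8075 with all 48 libraries, 6835 with voom and 5677 with same-numbered libraries summed, and 6709 to 8341 without a library or trio. Leaving out single libraries gave 2502 to 4186 genes within control, 2034 to 3365 within tunicamycin, 2445 to 4038 within cyclosporin, 0 for the interaction with treatment and 1906 to 2559 for the change with time. The replicate block gave 8209 genes for the strain difference and 2636 for the change with time, and ended no call of a named gene. Same-numbered libraries of different strains did not deviate together (mean correlation 0.009, over 0.1 in 1 of 9 pairs), so the block joins libraries that share only a number. Within a strain same-numbered libraries of different treatments had a mean correlation of 0.11, over 0.1 in 9 of 18 pairs. Differently numbered libraries of a strain had a mean of -0.053, over 0.1 in 6 of 36 pairs. Whether same-numbered slices share a mouse was not tested. Summed libraries, with 29.7% of all genes called, moved 4 of the 19 gene lists. Called there were 8 of glycolysis and hypoxia, 4 of the unfolded protein response, 8 of cholesterol synthesis and 4 of the clock. Of the proximal tubule markers 4 of 8 were called. Voom gave 5 for the unfolded protein response and 6 for the clock, beside 6835 of all 17348 genes. All 48 libraries gave 5 for each, beside 8075 of all 18719 genes. Without a library or trio, 4 to 10 unfolded protein response and 5 to 11 clock genes were called. The counts outside 1.5 times came without C57 control replicate 1, C57 cyclosporin replicate 2 or 3, the C57 libraries numbered 1, 2 or 3, or the DBA libraries numbered 1. Leaving out both DBA libraries with high collagen levels, chosen after seeing the data, gave 7628 genes. Without mitochondrial genes 7986 genes were called, and the mitochondrial list then has no value. Of 3397 values of named genes under the alternatives no called difference changed sign, Gsta2, not called at 24 h, turned from 0.08 to -0.0096 without the DBA libraries numbered 2, as did Ahr, also not called, from 0.081 to -0.018 without both DBA libraries with high collagen levels, and 7, for Ren1, Cry1, Hspa5 and Vegfa, lost the call. The mitochondrial difference of -2.92 points, over 3 means against 3, had p = 0.1 in an exact permutation test, its smallest possible, and ranged from -3.06 to -2.73 without a library. Strain-restricted genes numbered 3 in DBA and 1 in C57 at 0 counts, and 129 and 39 at 10 counts.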
